A study of Mus musculus with 44 samples.

Results

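Xbp1 and 6 other genes of endoplasmic reticulum (ER) stress sensing, Ern1, Atf6, Atf6b, Creb3l2, Mbtps1 and Mbtps2, were followed through the activation of a mouse B cell line with and without dioxin. They were chosen as named genes of this pathway, with earlier results of these data known, and every array probe set annotated to 1 of these symbols alone was taken: 19 probe sets of 45037, for 7 genes of 18193. Xbp1 had 4 probe sets, Ern1 5, Atf6 and Mbtps1 3 each, Creb3l2 2, and Atf6b and Mbtps2 1 each. One further probe set is annotated to both Yy2 and Mbtps2 and was left out. All 19 passed the filter on dim probe sets, which asked only that the highest group mean lie above it. The brightest probe set of each gene stands for it below, and the others are given beside it.

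The study measured RNA from CH12.LX cells, a long-established lymphoma line of mouse B cells that secretes IgM once activated, on 44 Affymetrix Mouse 430 2.0 arrays. Cells were plated at 100000 cells per ml and activated with lipopolysaccharide (LPS, from Salmonella typhosa), then given 0.01% DMSO as vehicle or the dioxin TCDD at 10 nM, and taken at 8, 12, 24, 36 and 48 h. Untreated cells were taken at 0 h only, and the labels do not make clear whether LPS had already been added to them. Because no untreated cells were taken later, LPS, vehicle and time in culture cannot be told apart in any comparison with them. Each of the 11 groups has 4 replicates, and each replicate number was treated and harvested on its own day. All cells are of 1 line, so the replicates are cultures on separate days and not animals.

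When unfolded protein accumulates in the ER, the membrane kinase and RNase IRE1α, the product of Ern1, cuts an intron out of Xbp1 mRNA, and the spliced form encodes the active transcription factor XBP1. ATF6, its relative ATF6B, and CREB3L2 are transcription factors held in the ER membrane that travel to the Golgi, where the site-1 protease (Mbtps1) and the site-2 protease (Mbtps2) release their active part. XBP1 is needed for the large secretory apparatus of plasma cells, and TCDD, in full 2,3,7,8-tetrachlorodibenzo-p-dioxin, is a ligand of the aryl hydrocarbon receptor that is known to lower IgM secretion in B cells. The arrays measured mRNA level only: they do not tell spliced from unspliced Xbp1, and they say nothing of cleavage of ATF6 or CREB3L2. A lower signal can mean fewer cells with the mRNA or less of it per cell, which cannot be told apart here.

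The promoters of Xbp1 and Creb3l2 are shown because these genes moved alike in vehicle cells on their brightest probe sets. Their upstream letters differ in what they match, and a link of these letters to the course was not tested. RefSeq's GRCm38.p6 promoter table held a window for 6 of the 7 genes, all but Atf6, and the 250 bases before the annotated start are printed, read 5′ to 3′ on the gene's strand. They lie at chr11:5520391-5520640 on the + strand for Xbp1 and at chr6:37442149-37442398 on the - strand for Creb3l2. Capitals mark the match to any of 5 motifs searched on both strands.
Xbp1: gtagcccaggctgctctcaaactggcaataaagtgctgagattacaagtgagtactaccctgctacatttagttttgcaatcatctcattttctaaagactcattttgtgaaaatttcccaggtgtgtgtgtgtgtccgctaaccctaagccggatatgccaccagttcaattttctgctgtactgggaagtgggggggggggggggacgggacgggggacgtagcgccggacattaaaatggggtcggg
Creb3l2: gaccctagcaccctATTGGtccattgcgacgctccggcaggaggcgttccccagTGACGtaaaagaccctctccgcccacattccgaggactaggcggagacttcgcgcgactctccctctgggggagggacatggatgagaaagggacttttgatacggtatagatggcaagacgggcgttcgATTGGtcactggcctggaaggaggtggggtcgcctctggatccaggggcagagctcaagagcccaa
The motifs were the ER stress element (CCAAT, then 9 bases of any kind, then CCACG), the core TGACGTG bound by XBP1 and ATF6, the cyclic AMP response element core TGACG, the core GCGTG bound by the aryl hydrocarbon receptor, and the CCAAT box. The Creb3l2 window held TGACG at -196 to -192 and CCAAT on the opposite strand at -236 to -232 and at -66 to -62, counted from the start. The Xbp1 window held none of the 5, which says only that these letters are not in this window. GCGTG was found in 4 of the 6 windows, those of Ern1, Atf6b, Mbtps1 and Mbtps2, against 28.2% of the 32851 windows of that length in the table. CCAAT was found in 2 of 6, in Atf6b and Creb3l2, against 33.8%, and TGACG in 2 of 6, in Creb3l2 and Mbtps1, against 17.8%. The TGACGTG core, held by 1.65% of all windows, and the ER stress element, held by 0.113%, were in none of the 6. These matches describe the letters and do not show a site in use.

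Values below are log2(signal + 16) after quantile normalization, with a floor of 4, and differences are on that log2 scale, which understates the change of dim probe sets. A gene was called changed when the adjusted p (limma, Benjamini-Hochberg over 25237 probe sets) was under 0.05. No level is set against that of another probe set.

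Xbp1 mRNA first fell and then rose in activated vehicle cells, and with TCDD it was higher than with vehicle early and lower late. In vehicle cells the signal was 2.19-fold lower than in untreated cells at 8 h, overlapped with them at 24 h and was above them at 36 and 48 h. With TCDD the early level was higher than with vehicle, by 1.38-fold at 8 h and 1.50-fold at 12 h, there was no detectable difference at 24 h, and the late level was lower, by 1.21-fold at 36 h and 1.31-fold at 48 h.

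The untreated arrays of Xbp1 (probe set 1437223_s_at) read 13.52, 13.33, 13.19 and 13.24. With vehicle they read 12.27, 12.25, 12.17 and 12.07 at 8 h and 12.46, 12.36, 12.40 and 12.52 at 12 h. All 8 of these early arrays lay below all 4 untreated ones. At 24 h the vehicle arrays read 13.44, 13.41, 13.39 and 13.49, within the untreated range. They read 13.75, 13.66, 13.69 and 13.65 at 36 h and 14.05, 13.81, 13.86 and 13.80 at 48 h. Both late groups lay wholly above the untreated arrays.

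Against untreated cells, the Xbp1 change was -1.13 ± 0.07 (SE) at 8 h (adjusted p = 9.58e-15), a 2.19-fold lower signal with a 95% interval of 1.98 to 2.42. It was -0.88 ± 0.07 at 12 h (adjusted p = 3.1e-12), 0.11 ± 0.07 at 24 h (0.319), 0.37 ± 0.07 at 36 h (0.000118) and 0.56 ± 0.07 at 48 h (4.11e-08). Each called change had the same sign on 4 of 4 days. The steepest step in vehicle cells came between 12 and 24 h, at 0.99 ± 0.07 (adjusted p = 3.88e-12). The step from 24 to 36 h, 0.26 ± 0.07 (adjusted p = 0.0193), lost its call when any 1 of the 4 days was left out (adjusted p 0.0569 to 0.174). The steps from 8 to 12 h (0.25, adjusted p = 0.0952) and from 36 to 48 h (0.19, adjusted p = 0.0637) passed with the replicate number as a block (adjusted p 0.0163 and 0.0174).

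With TCDD the Xbp1 arrays read 12.74, 12.69, 12.58 and 12.60 at 8 h and 13.01, 12.93, 13.06 and 13.09 at 12 h. These 8 lay above all vehicle arrays of their time and below all untreated arrays. The 24 h arrays read 13.49, 13.45, 13.33 and 13.34 and overlapped with vehicle. At 36 h they read 13.45, 13.34, 13.37 and 13.50, and at 48 h 13.51, 13.47, 13.47 and 13.50. Both late groups lay below all vehicle arrays of their time, and both overlapped with the untreated arrays. From its lowest to its highest time the mean moved by 1.69 with vehicle and by 0.84 with TCDD.

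The TCDD effect on Xbp1 was 0.46 ± 0.07 at 8 h (adjusted p = 3.39e-05) and 0.59 ± 0.07 at 12 h (2.75e-07), higher on 4 of 4 days at both times. It was -0.03 ± 0.07 at 24 h (0.928), with an interval of -0.17 to 0.11. It was -0.27 ± 0.07 at 36 h (0.0187) and -0.39 ± 0.07 at 48 h (0.000273), lower on 4 of 4 days at both. The effect at 48 h less that at 8 h was -0.85 ± 0.10, and the F test of a difference between times gave an adjusted p of 4.09e-08. The 36 h call was lost without any 1 day: the adjusted p was 0.0646 without day 1, 0.25 without day 2, 0.221 without day 3 and 0.0546 without day 4. With only the arrays of each comparison in the fit, none of the 8, 36 and 48 h effects passed (adjusted p 0.0545, 0.156 and 0.156).

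**Figure D1:**
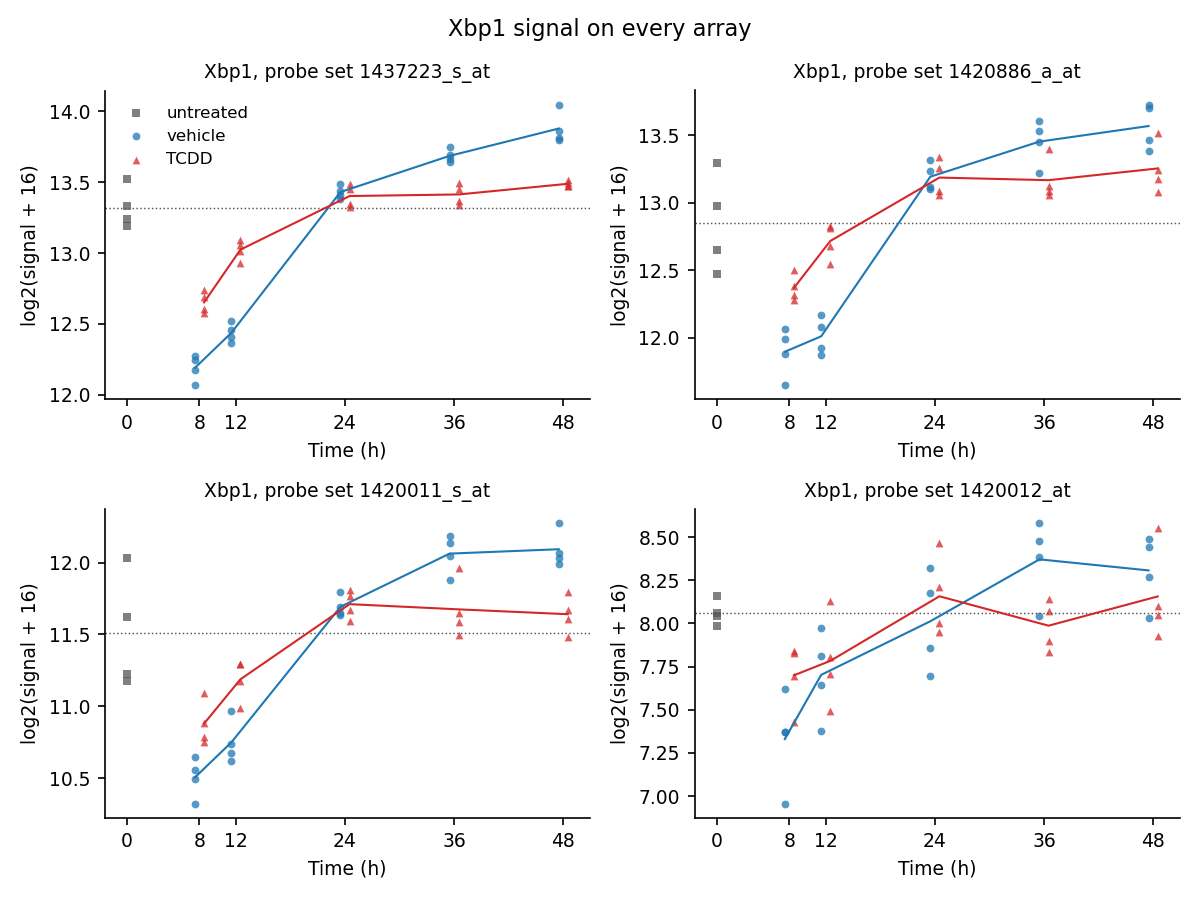
Xbp1 signal, log2(signal + 16), against time in hours for its 4 probe sets, with 1 point per array, lines through the group means and a dotted line at the untreated mean; TCDD and vehicle points are set slightly apart along the time axis. In the first panel the 4 TCDD points lie above the vehicle points at 8 and 12 h and below them at 36 and 48 h.

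The 4 Xbp1 probe sets drew much the same course, with pairwise r of 0.94 to 0.99 over the 11 group means, a description since they share the arrays. At 8 h in vehicle cells 1420886_a_at changed by -0.95, 1420011_s_at by -1.01 and the dimmest, 1420012_at, by -0.73, all called. At 48 h the first of these changed by 0.72 and the second by 0.58, both called, while 1420012_at was at 0.25 (adjusted p = 0.251). Without the 4 arrays that stand apart in signal or RNA measures, described below, the 36 h rise of 1420886_a_at and of 1420011_s_at (adjusted p 0.0994 and 0.241) and the 48 h rise of 1420011_s_at (0.138) did not pass. The TCDD effect at 12 h was 0.71 for 1420886_a_at (adjusted p = 0.000375) and 0.44 for 1420011_s_at (0.0333), and the latter did not pass without day 2, 3 or 4 (0.17 to 0.198). At 8 h 1420886_a_at was at 0.47 (adjusted p = 0.0378), a call lost without any 1 day (0.0783 to 0.266), and at 48 h 1420011_s_at was at -0.45 (0.0277), likewise lost (0.0541 to 0.221). The late lowering with TCDD was thus called on 1437223_s_at at both times and on 1 of the 3 others at 48 h. At 36 h none of these 3 was called, with 1420886_a_at at -0.29 (adjusted p = 0.312), 1420011_s_at at -0.39 (0.0965) and 1420012_at at -0.38 (0.256). At 48 h 1420886_a_at was at -0.31 (0.17) and 1420012_at at -0.15 (0.715). The replicate block brought TCDD calls for 1420011_s_at at 8 h (0.37, adjusted p = 0.0389 against 0.146) and 36 h (0.0239) and for 1420886_a_at at 48 h (0.0487). In vehicle cells it brought calls for 1420012_at at 12 h (-0.36, 0.0472), for 1420886_a_at at 24 h (0.35, 0.0147) and for the step of 1420011_s_at from 24 to 36 h (0.37, 0.0204). The change of the TCDD effect between times passed for 1420886_a_at (adjusted p = 0.000406) and 1420011_s_at (0.00136, but 0.112 without day 2), and not for 1420012_at (0.242), which had no TCDD call at any time.

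Ern1, which encodes the enzyme that splices Xbp1, took another course: it rose by 8 h, did not fall back, and showed no called difference between TCDD and vehicle. Its 4 untreated arrays (probe set 1437119_at) read 8.15, 8.35, 8.52 and 8.89. With vehicle they read 9.85, 9.53, 9.31 and 9.66 at 8 h. At 48 h they read 11.02, 11.06, 10.67 and 10.61. All 20 vehicle arrays, from 8 to 48 h, lay above all untreated ones.

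Ern1 changed by 1.11 ± 0.16 at 8 h (adjusted p = 1.17e-06), 1.09 at 12 h, 1.28 at 24 h, 1.76 at 36 h and 2.36 ± 0.16 at 48 h (1.22e-14), the last a 5.14-fold higher signal. At 8 and 12 h, when Xbp1 was below the untreated level, Ern1 was thus above it. The step from 36 to 48 h was 0.60 ± 0.16 (adjusted p = 0.0076) and was lost without day 2 (0.178). The step from 24 to 36 h, 0.48 (adjusted p = 0.0556), passed with the replicate block (0.0227).

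The Ern1 probe sets did not draw 1 course. The second brightest, 1421240_at, rose to 1.08 at 8 h and stood at 0.69 at 48 h, with no later rise; its 48 h call was lost without the 4 arrays standing apart (adjusted p = 0.118). The dimmest, 1431886_at, went from 0.50 at 8 h (adjusted p = 0.323) to 2.01 at 48 h (6.01e-06), more like the brightest. At 36 h it was at 1.06 (adjusted p = 0.015), which did not pass without the 4 arrays standing apart (0.147), and its step from 36 to 48 h passed with the replicate block only (0.95, 0.0146 against 0.0527). The early rise was thus called in 2 of 5 probe sets at 8 h, and in 3 with the replicate block, which added 1450176_at (0.63, adjusted p = 0.0494 against 0.0509). The 48 h level was above untreated in 5 of 5. Of these, 1431886_at exceeded the filter value of 6.21 only at 48 h, with group means of 6.49 with vehicle and 6.26 with TCDD. For 1450176_at only the vehicle mean at 36 h, 6.29, did. These 2 were tested only because of late groups where they were high, so their late calls are not separate support for the rise. Over the 11 group means, r between the brightest Ern1 probe set and the others ranged from 0.26 to 0.87. The 2 remaining, 1438583_at and 1450176_at, were called higher at 12, 24 and 48 h, and 1450176_at at 36 h too, with changes of 0.61 to 0.87; each of these calls was lost when at least 1 of the days was left out. Without the 4 arrays standing apart, 1438583_at did not pass at 24 h (adjusted p = 0.068) or 48 h (0.194), nor 1450176_at at 12 h (0.106) or 24 h (0.157).

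TCDD against vehicle in Ern1 gave -0.02 at 8 h (95% interval -0.33 to 0.30), -0.05 at 12 h, -0.03 at 24 h, -0.15 at 36 h and -0.28 at 48 h (-0.59 to 0.04, adjusted p = 0.373). The TCDD arrays at 48 h read 10.64, 10.46, 10.59 and 10.56, of which 1 lay above the lowest vehicle array. None of the 5 Ern1 probe sets had a TCDD call at any of the 5 times. Differences inside these intervals could not be told from 0 with 4 arrays a group.

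Atf6 and Creb3l2, both membrane-held transcription factors, followed the dip and rise of Xbp1 on their brightest probe sets. The 4 untreated Atf6 arrays (1435444_at) read 10.34, 10.16, 10.20 and 10.25, and the vehicle arrays read 10.01, 9.59, 9.60 and 9.68 at 12 h. At 48 h the vehicle arrays read 10.87, 11.24, 10.67 and 10.67. The 12 h arrays lay below and the 48 h arrays above all untreated ones. The Atf6 change was -0.41 ± 0.11 at 8 h (adjusted p = 0.00433), -0.52 at 12 h (0.000409), 0.40 at 24 h (0.0075), 0.56 at 36 h (0.000136) and 0.62 ± 0.11 at 48 h (1.25e-05). The 8 h call was lost without day 3 (0.0555), and the 24 h call without day 3 (0.0862) or day 4 (0.0554).

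The late rise of Atf6 was shared by its probe sets and the early dip was not. At 8 h 1456021_at was at -0.13 and 1453288_at at -0.03, and at 12 h they were at 0.20 and 0.11, with no call. At 48 h they had changed by 1.24 and 0.93, both called. The 24 h rise of 1453288_at, 0.54 (adjusted p = 0.00492), was lost without day 3 or 4 and without the 4 arrays standing apart (0.278). Its step from 12 to 24 h, 0.43, passed with the replicate block (adjusted p = 0.0067 against 0.0519).

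Creb3l2 encodes a transcription factor of the same cleaved kind that is known to act in secretory cells. Its untreated arrays (1452381_at) read 9.58, 9.29, 9.63 and 9.57, and the vehicle arrays read 8.97, 8.64, 8.79 and 8.87 at 8 h. The vehicle arrays at 48 h read 10.56, 10.72, 10.29 and 10.17. Neither time overlapped with the untreated arrays. The Creb3l2 change was -0.70 ± 0.12 at 8 h (adjusted p = 3.52e-05), -0.80 at 12 h (3.55e-06), 0.24 at 24 h (0.196), 0.50 at 36 h (0.00193) and 0.92 ± 0.12 at 48 h (1.13e-07). The other probe set, 1437396_at, showed the late rise (0.53 at 36 h and 0.84 at 48 h, both called) and no called dip (-0.07 at 8 h and -0.14 at 12 h). Its 36 h call was lost without day 2, 3 or 4 (adjusted p 0.101 to 0.14). The replicate block added its 24 h level (0.43, adjusted p = 0.000921 against 0.0649) and its step from 36 to 48 h (0.31, 0.0188 against 0.234).

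With TCDD at 48 h, Atf6 and Creb3l2 were lower than with vehicle on 4 of 4 days, and neither passed the test as run here. Creb3l2 read 10.16, 10.14, 9.99 and 9.91 with TCDD at 48 h, all below the vehicle arrays. Its effect was -0.38 ± 0.12 (adjusted p = 0.0503, and 0.00997 with the replicate block). It also passed with no term for the day under a stricter filter (0.0239), 1 probe set per gene (0.0351), a pseudocount of 64 (0.0399) and an intensity trend (0.0488). The change of the Creb3l2 effect between times gave an adjusted p of 0.0599, and 0.00661 with the block. At 48 h Atf6 read 10.55, 10.59, 10.50 and 10.57 with TCDD, also below all vehicle arrays. The Atf6 effect was -0.31 ± 0.11 (adjusted p = 0.083, 0.0294 with the block and 0.0416 under the stricter filter). The Atf6 probe set 1456021_at was called lower at that time, -0.42 ± 0.12 (adjusted p = 0.0273), and lost the call without any 1 day (0.0871 to 0.162); the change of its effect between times passed with the block alone (0.0422 against 0.18). At 12 h, where Xbp1 was higher with TCDD, Creb3l2 was at 0.25 (adjusted p = 0.264) and Atf6 at 0.14 (0.566).

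Atf6b, the relative of Atf6, showed no called change in any comparison as run here and had the smallest range of group means, 0.52. Its untreated arrays read 9.13, 9.49, 9.58 and 9.49, and the vehicle arrays at 48 h read 8.94, 8.99, 9.45 and 9.23, which overlapped. The array of day 1 was the lowest of its group in 11 of 11 groups, an order noticed after the values were seen and not found in the 6 other genes, where no day was lowest in more than 7 of 11. In Mbtps1, below, the array of day 2 was the highest in 10 of 11 groups. With the replicate block Atf6b was called lower with vehicle at 48 h (-0.27, adjusted p = 0.00804 against 0.117 without it), and lower with TCDD at 24 h (-0.28, 0.0264 against 0.32). The vehicle change at 48 h was also called with day as a random effect (0.023). With no term for the day, it was called when day 1 was left out (-0.29, 0.0325). The step from 36 to 48 h in vehicle cells also passed with the block (-0.23, adjusted p = 0.0481).

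The proteases that release ATF6 and CREB3L2 had ranges of group means of 0.55 for Mbtps1 and 1.08 for Mbtps2. That of Atf6 was 1.14 and that of Creb3l2 1.72. Mbtps1 read 10.44, 10.55, 10.54 and 10.49 untreated and 10.75, 10.85, 10.75 and 10.73 with vehicle at 24 h, without overlap (1448240_at). Its change was 0.27 ± 0.09 at 24 h (adjusted p = 0.0406) and 0.26 ± 0.09 at 48 h (0.0248). The 24 h call was lost without any 1 day (0.0677 to 0.174), and the 48 h call without day 1 (0.153), without day 2 (0.123) or without the 4 arrays standing apart (0.11). With the replicate block 36 h passed too (0.19, adjusted p = 0.0459 against 0.145). Its step from 12 to 24 h, 0.45 ± 0.09, was called (adjusted p = 0.00117) on 4 of 4 days. Of the 2 dimmer Mbtps1 probe sets, 1431385_a_at was called higher at 24 h (0.81, adjusted p = 0.032), and 1431386_s_at was called nowhere. The 24 h call of 1431385_a_at was lost without day 3 or 4 and without the 4 arrays standing apart, where the change was 0.48 (0.229). At 12 h it passed with the replicate block (0.63, adjusted p = 0.0461 against 0.091).

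Mbtps2 rose late in vehicle cells. Its untreated arrays (1436883_at) read 9.86, 9.83, 9.92 and 9.91, and the vehicle arrays read 10.86, 10.53, 10.42 and 10.51 at 48 h. The change was 0.32 ± 0.09 at 36 h (adjusted p = 0.00767) and 0.70 ± 0.09 at 48 h (1.01e-07), with a step from 36 to 48 h of 0.38 ± 0.09 (0.0045) that was lost without day 2 (0.0772). At 8 h it was at -0.20 (adjusted p = 0.116, and 0.0347 with the block).

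With TCDD, Mbtps2 was lower at 24 h, when Xbp1 was not called. The TCDD arrays read 9.76, 9.68, 9.51 and 9.79 against 10.15, 9.96, 9.97 and 10.05 with vehicle. The effect was -0.34 ± 0.09 (adjusted p = 0.0193), lower on 4 of 4 days, and the call was lost without any 1 day (0.055 to 0.207). At 12 and 36 h the Mbtps2 arrays did not overlap either, at -0.22 (adjusted p = 0.168) and -0.28 (0.0907), and both passed with the replicate block (0.0445 and 0.0142). The change of its effect between times was not called (0.956). Mbtps1 with TCDD was at -0.22 at 24 h, -0.20 at 36 h and -0.27 at 48 h, lower on 4 of 4 days at each, and of these only 48 h passed with the block (adjusted p = 0.0109, against 0.076 without it).

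**Figure D2:**
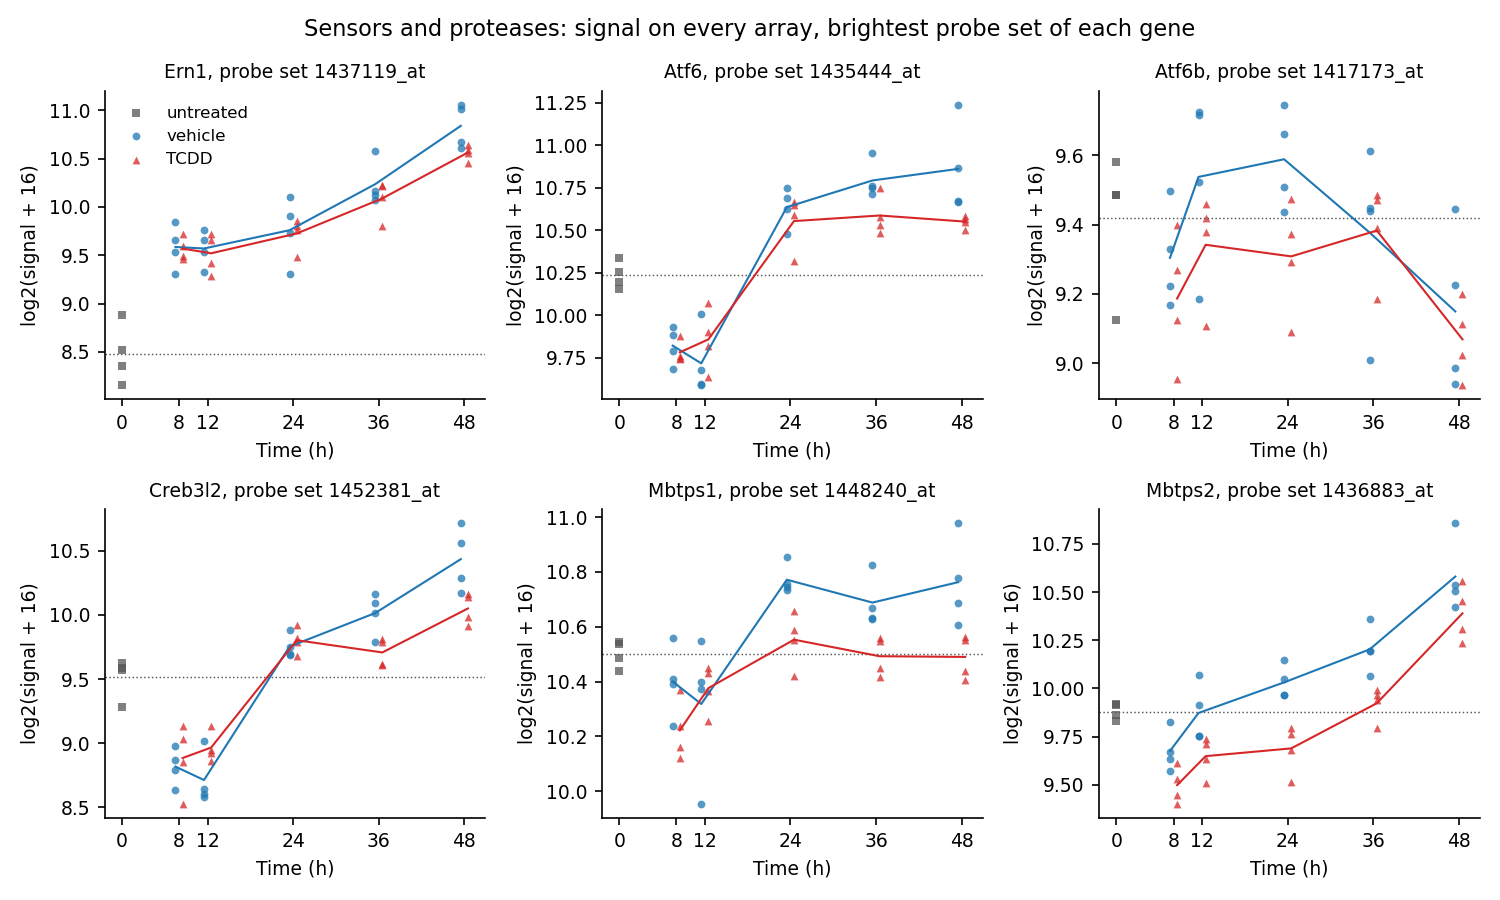
Signal, log2(signal + 16), against time in hours for the brightest probe set of Ern1, Atf6, Atf6b, Creb3l2, Mbtps1 and Mbtps2, with 1 point per array, lines through the group means and a dotted line at the untreated mean; each panel has its own vertical scale. Ern1 lies above the untreated arrays at every time, Atf6 and Creb3l2 lie below them at 8 and 12 h and above them at 48 h, and the Mbtps2 vehicle line ends at 10.58.

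Counted over the 7 genes, vehicle against untreated was called in 4 at 8 h, 4 at 12 h, 3 at 24 h, 5 at 36 h and 6 at 48 h. Over all 11970 genes tested, 23.3% were called at 8 h, 23.5% at 12 h, 18.6% at 24 h, 29.7% at 36 h and 42.4% at 48 h. At 8 and 12 h the calls were lower for Xbp1, Atf6 and Creb3l2 and higher for Ern1, and at 48 h all 6 were higher. From one time to the next, 0 of 7 were called from 8 to 12 h, where 1.07% of all genes were. Before adjustment for the number of probe sets, limma's p was under 0.05 for 2 of them, Xbp1 at 0.00116 and Mbtps2 at 0.0381. From 12 to 24 h 4 of 7 were called, all higher (Xbp1, Atf6, Creb3l2 at 1.04 ± 0.12, and Mbtps1), against 8.65% of all genes. From 24 to 36 h Xbp1 alone was called, against 8.82%, and from 36 to 48 h Ern1, Creb3l2 (0.42 ± 0.12, adjusted p = 0.0168) and Mbtps2 were, against 14.8%. That Creb3l2 step was lost without day 2 (0.152), without day 3 (0.135) and without the 4 arrays standing apart (0.0853).

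TCDD against vehicle was called in 1 of 7 genes at each time, Mbtps2 at 24 h and Xbp1 at the 4 others. The share of all genes called was 3.48% at 8 h, 7.84% at 12 h, 6.29% at 24 h, 4.88% at 36 h and 7.58% at 48 h. With the replicate block the counts were 1, 2, 2, 2 and 4, and at 48 h the 4 were Xbp1, Atf6, Creb3l2 and Mbtps1, all lower. The share of all genes called rose with the block too, to 6.85%, 13.7%, 11.8%, 9.19% and 13.5% at the 5 times. A change of the effect between times was called in 1 of 7, Xbp1, against 5.37% of all genes.

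**Figure D3:**
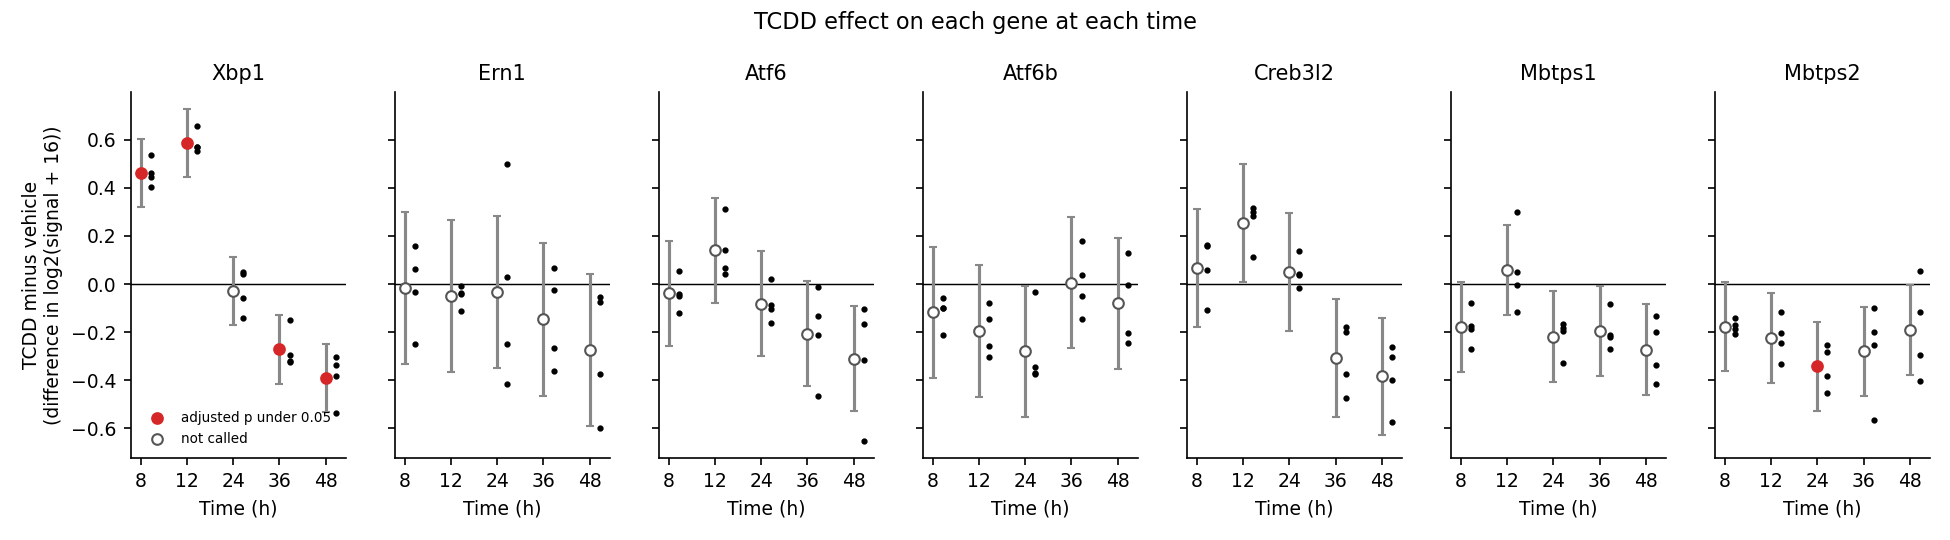
TCDD minus vehicle, as a difference in log2(signal + 16), at each time for the brightest probe set of the 7 genes, with the 95% interval of the fit; filled circles are called and open ones are not, and small dots beside them are the differences within each of the 4 days. Xbp1 goes from 0.46 and 0.59 at the first 2 times to -0.27 and -0.39 at the last 2, and the only other filled circle is Mbtps2 at 24 h.

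Across the 11 group means, Xbp1 correlated most with Creb3l2 (r = 0.94) and Atf6 (0.93) among the members, and Atf6 with Creb3l2 at 0.97. Ern1 stood apart from Xbp1, at 0.47, and Atf6b had r of -0.18 with Xbp1 and -0.50 with Ern1. These are descriptions over groups that share arrays and days. Outside the members, the patterns most like Xbp1 over the 11 group means, with r over the 44 arrays after each, were those of Ccng2 (0.98 and 0.95), Slc38a10 (0.98 and 0.93), Ano10 (0.97 and 0.89), Cdca3 (0.97 and 0.84), Ostf1 (0.97 and 0.91) and Dusp14 (0.97 and 0.91). Nearest to Atf6, with the same 2 values after each, were Herpud1 (0.99 and 0.94), Rhobtb1 (0.99 and 0.935) and Eaf2 (0.98 and 0.87). Herpud1 is a gene of ER-associated degradation on the list below. Creb3l2 was followed most closely by Wnk1 (0.99 and 0.96), Slc36a4 (0.99 and 0.90) and Ostf1 (0.98 and 0.89). Ern1 was followed by Pmaip1 (0.98 and 0.91), Syce1l (0.97 and 0.91) and Zfp760 (0.97 and 0.78). For Mbtps2 the nearest were Aarsd1 (0.97 and 0.78), Vwa8 (0.97 and 0.665) and Fars2 (0.97 and 0.84). The nearest to Mbtps1, Sv2c (0.97), 1700017B05Rik (0.96) and Man1a2 (0.96), and to Atf6b, Pdcd2l (0.93), Pop5 (0.93) and Fam162a (0.92), had r of only 0.16 to 0.71 over the arrays.

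A list of 30 genes of ER folding, export and degradation was read beside the members. XBP1 and ATF6 are known to drive genes of this kind. Whether each of the 30 is their target in these cells was not tested. All 30 passed the filter. Of all 11970 genes, 12.7% were called lower and 10.6% higher with vehicle at 8 h, and 19.7% lower and 22.7% higher at 48 h, which is the background for this list and those after it. In vehicle cells 13 fell and 1 rose at 8 h, led by Ero1b, an oxidase for disulfide bonds (-1.39 ± 0.11), Syvn1, a ubiquitin ligase of ER degradation (-1.09 ± 0.14), Herpud1 (-1.05 ± 0.14) and Sec24d, a coat protein of ER export vesicles (-0.86 ± 0.15). At 48 h 18 rose and 1 fell, led by Fkbp11, a folding enzyme of secretory cells (2.10 ± 0.10), Herpud1 (1.64 ± 0.14), Derl3 (1.63 ± 0.18) and Sel1l (1.40 ± 0.10), the last 2 of ER degradation. The median change went from -0.23 at 8 h to 0.38 at 48 h, against -0.02 and 0.02 over all genes. From 12 to 24 h, the step at which Xbp1 rose most, 17 rose and 0 fell, against 5.46% and 3.2% of all genes. The 8 h count was 8 lower and 1 higher without day 2, 9 and 0 without day 3, and 8 and 0 without day 4; with only the arrays compared it was 7 and 0.

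With TCDD, 11 of these 30 genes fell and 1 rose against vehicle at 48 h, and 8 fell at 36 h. Of all genes, 3.84% were called lower and 3.73% higher at 48 h, and 1.82% lower at 36 h. With only the arrays compared in the fit, 0 of the 30 were lower and 0 higher at 48 h and 1 was lower at 36 h; without the filter 7 were lower at 48 h and 2 at 36 h. At 48 h the largest were Fkbp11 (-0.58 ± 0.10), Sec24d (-0.50 ± 0.15), Herpud1 (-0.48 ± 0.14) and Sel1l (-0.48 ± 0.10). At 8, 12 and 24 h 1, 2 and 2 rose and none fell, where 2.4%, 5.35% and 4.24% of all genes were called higher. With only the arrays compared 0 rose at each of these times. With the replicate block 2 rose at 8 h and 4 at 12 h. Under the block 6.85% and 13.7% of all genes were called then, in either direction. Leaving out any 1 day left 0 higher at 8 h, and left 1 to 3 lower at 36 h and 4 to 7 lower at 48 h. The median of the list was 0.045 at 8 h, 0.056 at 12 h, -0.19 at 36 h and -0.25 at 48 h. Over all genes it was -0.01, 0.01, -0.01 and -0.02. Xbp1 was higher with TCDD at 8 and 12 h and lower at 36 and 48 h, and the comparisons share the vehicle arrays. Whether the list followed Xbp1 was not tested.

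Of 6 relatives of the sensors, 4 passed the filter: Eif2ak3, which encodes the third sensor PERK, Creb3, Creb3l1 and Creb3l3. Eif2ak3 fell with vehicle at 8 h (-1.11 ± 0.13, adjusted p = 1.44e-08), and Creb3 did too (-0.43 ± 0.10); with the 4 arrays standing apart or day 4 left out, or with only the arrays compared, 1 of the 2 remained called. At 48 h Creb3l1 was higher (0.83 ± 0.18). With TCDD, Eif2ak3 alone was lower at 36 h (-0.76 ± 0.13, adjusted p = 9.64e-05), where 2 were without the 4 arrays standing apart or with only the arrays compared, and at 48 h (-0.54 ± 0.13, 0.00525), and Creb3 at 48 h (-0.34 ± 0.10, 0.0282); at 48 h none of them passed without day 1 or without day 4, and 1 did without day 2 or day 3. With only the arrays compared 0 passed at 48 h, and with the replicate block 1 was lower at 24 h, where 0 were without it.

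In the PERK arm, which restrains translation and induces stress genes, 11 of 12 passed the filter. At 8 h 7 fell and none rose with vehicle, led by Trib3 (-1.74 ± 0.34), Chac1 (-1.34 ± 0.32), Atf3 (-0.92 ± 0.33) and Ddit3, which encodes CHOP (-0.70 ± 0.22). At 48 h 9 rose and 1 fell, led by Nupr1 (7.10 ± 0.58), Ddit3 (3.61 ± 0.22), Chac1 (3.59 ± 0.32) and Trib3 (2.91 ± 0.34). The list's median at 48 h was 1.33. The 8 h count was 2 lower and 1 higher without the 4 arrays standing apart, and 4, 3 and 3 lower without day 2, 3 or 4; with only the arrays compared 4 were lower. With TCDD, Ppp1r15a, which restarts translation (-0.98 ± 0.23), and Ddit4, an inhibitor of growth signalling (-0.73 ± 0.19), fell at 48 h; neither passed without day 2, and 1 did without day 3 or with only the arrays compared. The replicate block gave 1 higher with TCDD at 8 h, against 0.

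Of 12 partners and substrates of IRE1, 9 were measured and 8 passed the filter. Traf2, the adaptor that binds IRE1, was higher at 8 h (0.71 ± 0.13) and at 48 h (1.30 ± 0.13) with vehicle, as Ern1 was. Map3k5, the stress kinase ASK1, went from -0.81 ± 0.11 at 8 h to 0.65 ± 0.11 at 48 h, and Ptpn1 was lower at 8 h (-0.48 ± 0.11) and Hgsnat at 48 h (-0.67 ± 0.13). With TCDD at 48 h Traf2 (-0.54 ± 0.13), Map3k5 (-0.39 ± 0.11) and Ptpn1 (-0.36 ± 0.11) were lower and Hgsnat (0.43 ± 0.13) higher. None of these 4 TCDD calls was left without the 4 arrays standing apart, nor without day 2 or day 3, nor with only the arrays compared.

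The SREBP factors of sterol synthesis are cut by the same proteases. Of 8 genes of that pathway above the filter 6 fell at 8 h with vehicle, and neither Mbtps1 nor Mbtps2 was called then. The 6 were led by Hmgcs1 (-1.74 ± 0.16), a cholesterol synthesis enzyme, Insig1 (-1.51 ± 0.31), which holds SREBP in the ER, Srebf2 (-1.07 ± 0.14) and Srebf1 (-0.98 ± 0.13), which encode the SREBPs. At 48 h 2 rose and 4 fell: Insig2 was at 1.43 ± 0.16, Gnptab, another substrate of the site-1 protease, at -1.05 ± 0.14, Hmgcs1 at -0.64 ± 0.16 and Scap at -0.48 ± 0.17. Without day 3 that count was 1 higher and 2 lower. With TCDD at 12 h Hmgcs1 (0.64 ± 0.16), Gnptab (0.50 ± 0.14) and Sqle (0.45 ± 0.12) were higher; without day 2 or day 4, or with only the arrays compared, none passed, and without day 3 1 did.

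Among the regulators and products of plasma cells, 7 of 8 passed the filter. Prdm1, the factor known to direct plasma cell differentiation upstream of Xbp1, rose by 8 h with vehicle (1.98 ± 0.14) and stayed up at 48 h (2.18 ± 0.14), so it was high while Xbp1 was low. Irf4 rose too (1.43 ± 0.11 at 8 h), while Jchain (-1.05 ± 0.33) and Ighm (-0.88 ± 0.27), the latter also a B cell marker below, were lower at 8 h, calls that both went without day 1. At 48 h Bach2, a repressor of Prdm1, was lower (-2.16 ± 0.39) and Sdc1 (1.20 ± 0.25) and Ighm (1.12 ± 0.27) higher. With TCDD at 12 h Bach2 was higher (2.23 ± 0.39, adjusted p = 0.000229) and Irf4 lower (-0.41 ± 0.11), the second lost without day 4 and with only the arrays compared; with the replicate block 2 of the list were higher and 2 lower. At 48 h 1 was lower with TCDD, 2 with the block and 0 with only the arrays compared.

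**Figure D4:**
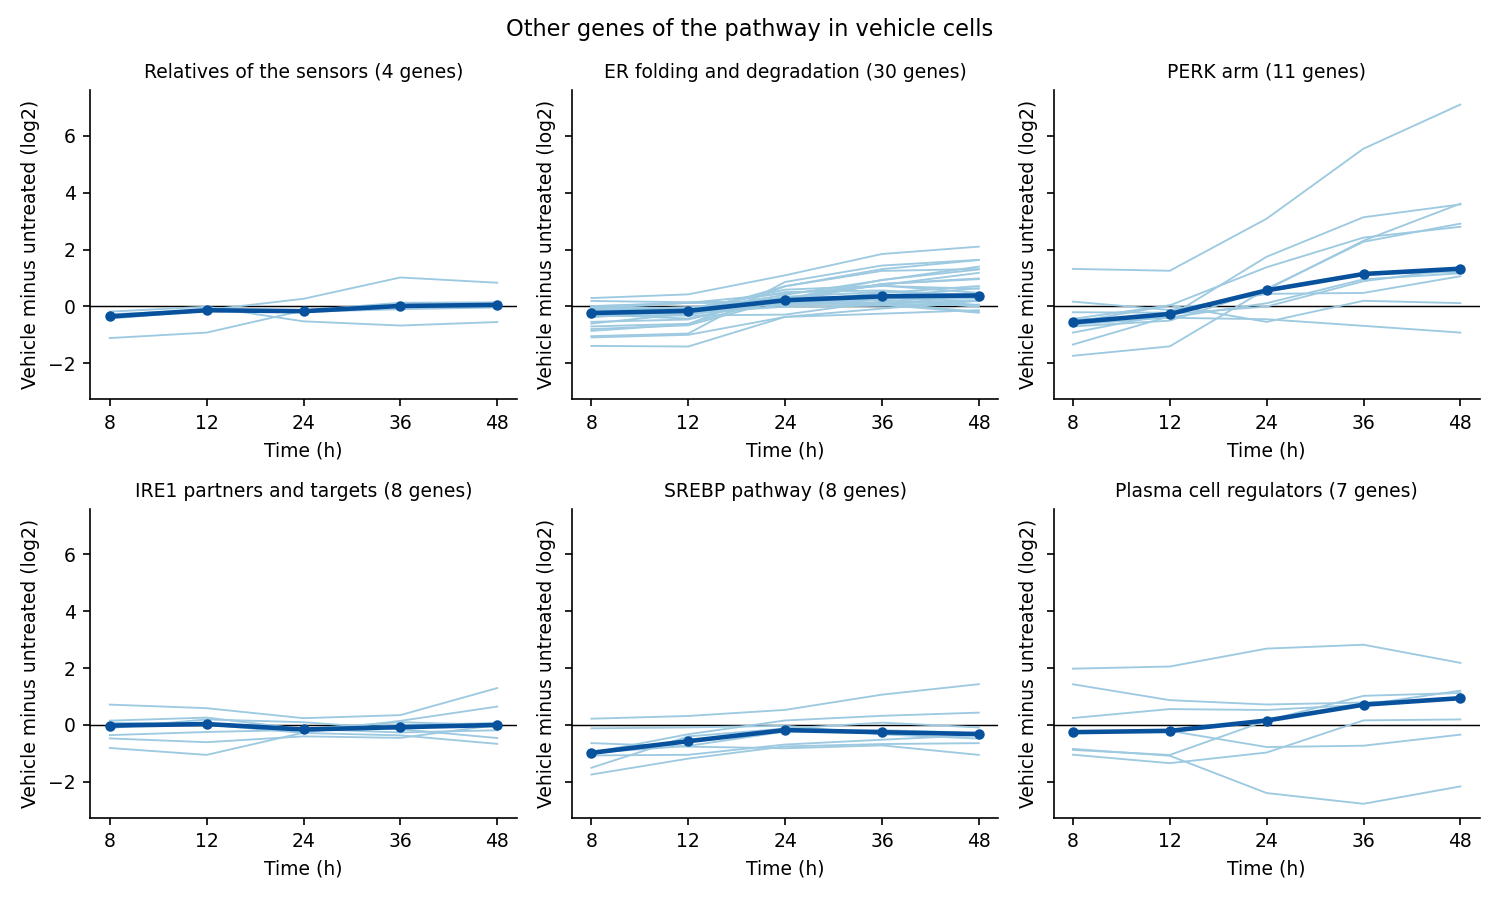
Vehicle minus untreated, on the log2(signal + 16) scale, at 8 to 48 h for the genes of 6 lists that passed the filter; thin lines are genes and the thick line with points is the list's median, on 1 vertical scale. The median of the 30 ER folding and degradation genes starts at -0.23 at 8 h and ends at 0.38, while the highest PERK arm line, Nupr1, reaches 7.10.

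Markers were read as levels. Of 6 B cell markers 5 were measured and all 5 lay above the filter. Their summed signal was 9211 to 26896 per array, and the sum was highest in untreated cells. Gene by gene, Cd79a, Ms4a1 and Cd22 were highest in untreated cells, Cd79b with TCDD at 48 h and Ighm with vehicle at 48 h. Of 5 T cell markers measured 3 lay above it (443 to 917). Of 6 myeloid markers 4 lay above it, and Lyz2 and Itgam did not. The summed myeloid signal was 637 to 1094 in vehicle arrays and 1596 to 2445 in TCDD arrays, with no overlap at any time. Csf1r was called higher at every time and Adgre1 from 12 h on, and 1 other myeloid marker was called lower at 48 h. The part of the myeloid signal in the TCDD results on Xbp1 was not tested. The median signal per array was 45.0 to 98.9, highest in untreated replicate 4 and vehicle 12 h replicate 4. The 3′ to 5′ log2 ratio of the transferrin receptor control was 1.18 at the median and 3.04 in untreated replicate 3 and 2.85 in vehicle 48 h replicate 2. Without these 4 arrays, all calls of the 7 brightest probe sets at 8 and 12 h held, as did all 4 TCDD calls of Xbp1 and that of Mbtps2; the members' calls that did not are given with their genes above.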

How the data were processed

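The authors deposited linear signal intensities for 44 arrays. The submitters' processing notes name GCOS 1.0, and every array has a trimmed mean of 500.0. What else was done is not given in the sources used here. Samples were grouped by treatment and time from the labels.

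After 64 controls were left out, values were quantile normalized and turned into log2(value + 16). Probe sets whose highest group mean exceeded the median of all values (6.21) were kept, 25237 of 45037. The annotation gives 1 symbol to 34945 probe sets, several to 932 and none to 9160; of the first, 34741 matched RefSeq's GRCm38.p6 genes by identifier, with 0 symbols altered. R 4.3.3 and limma 3.58.1 were used, with all 11 group means in 1 model, two-sided moderated tests, Benjamini-Hochberg over all kept probe sets per comparison, threshold 0.05. Background shares use 1 probe set a gene. The script was tested on simulated data with no day effect, which does not cover the pairing by day described below. The number of arrays limits the precision.

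Replicate numbers share a day per the series' design text, so they pair the samples: deviations of same-numbered arrays correlated with a median r of 0.17 against -0.06, and of 20 TCDD and vehicle pairs 18 were above 0.1. The replicate block is given where it changes a call on a member's probe set and, for the lists, beside the larger moves of a TCDD count. Alternatives were the block, day as a random effect, only the arrays compared, 2 other filters, values as deposited, 1 probe set per gene, moderation with an intensity trend, pseudocounts of 1 and 64, and fits without 4 arrays or without each day.

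Members and lists were chosen with earlier results of these data known. All members are named; from each list up to 4 called genes with the largest change at 8 and 48 h and at the TCDD time with most calls, Eif2ak3 at 36 h being added after its value was seen.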

Additional observations from a re-analysis of the deposited data

Results flagged for a closer look

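The TCDD effect on Xbp1 differed between times. The F test of 4 contrasts gave adjusted p = 4.09e-08 for 1437223_s_at, 0.000406 for 1420886_a_at and 0.00136 for 1420011_s_at (limma, over all probe sets), with the first higher at 8 and 12 h and lower at 36 and 48 h in 4 of 4 days.

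Of 110 groups of 4 arrays examined, on the 4 probe sets of Xbp1 and the brightest of each other gene, 3 held an array far from its 3 neighbours, on a rule that chance meets in about 1 group in 20. Atf6 with TCDD at 8 h in replicate 1 read 9.88, and the nearest of the others 9.76, a gap of 0.857 of the group's range. Creb3l2 in untreated replicate 2 read 9.29 against 9.57, a gap of 0.844 of the range. Creb3l2 with vehicle at 12 h in replicate 1 read 9.02 against 8.64, a gap of 0.852 of the range.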

How the results depend on the processing

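Counts below are of the 7 genes on their brightest probe sets. The share of all genes called moved with the setting too. For TCDD over the 5 times it was 3.48% to 7.84% as run here and 6.85% to 13.7% with the replicate block. It was 1.46% to 4.35% with only the arrays compared, 1.67% to 3.64% without the filter and 1.61% to 5.81% without 1 day. For vehicle at 24 and 36 h it was 18.6% and 29.7%, and 8.07% and 13.7% with only the arrays compared. With the replicate block, the TCDD counts were 2 at 12 h, 2 at 24 h, 2 at 36 h and 4 at 48 h, against 1 each; the vehicle steps gave 1 from 8 to 12 h, 2 from 24 to 36 h and 5 from 36 to 48 h, against 0, 1 and 3, and the change of the TCDD effect between times 2 against 1. The block lost none of the calls made without it. Day as a random effect gave 2 at 36 h and 4 at 48 h for TCDD, 1 and 2 for the steps from 8 to 12 h and from 24 to 36 h, and 2 for the change between times. With only the arrays compared, vehicle gave 1 at 24 h and 3 at 36 h against 3 and 5, TCDD 0 at 8, 24, 36 and 48 h, and the steps 0 from 24 to 36 h and 0 from 36 to 48 h. Without the filter, TCDD gave 0 at 24 and 36 h and the step from 24 to 36 h gave 0. The stricter filter gave 2 at 36 h, 4 at 48 h, 1 and 2 for the steps from 8 to 12 h and from 24 to 36 h, and 2 for the change between times, fewer probe sets being tested. With 1 probe set per gene TCDD at 48 h gave 2, those steps 1 and 2, and the change between times 2. A pseudocount of 64 gave 2 for TCDD at 48 h and 2 for the step from 24 to 36 h, and the intensity trend gave 2, with 1 and 2 for those steps. Values as deposited gave 2 for the change between times. Without the 4 arrays standing apart the step from 24 to 36 h gave 2. Leaving out each day gave 1 to 2 for vehicle at 24 h, 0 to 0 for TCDD at 24 h, at 36 h and for the step from 24 to 36 h, and 0 to 3 for that from 36 to 48 h. The cause of the other moves was not tested. No called value changed direction under any of these 15 alternatives.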
